A study of Mus musculus with 5 samples.

Results

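Fc receptors bind the constant part of antibodies, and the genes described here are 9 of that family and its signalling chains: Fcgr1, Fcgr3, Fcgr4, Fcgr2b, Fcer1g, Tyrobp, Fcgrt, Fcrla and Fcmr. They were chosen by name and found through their Ensembl identifiers among the 55487 genes of the count table, and 6 of the 9 had enough reads to be tested. RNA was sequenced from sorted common lymphoid progenitors of mouse bone marrow, lineage-negative cells positive for CD127 and Flt3 that give rise to B, T and natural killer cells. The SF1 group (SclCre;JAK2-V617F, 3 libraries) carries a Cre recombinase driven by Scl and the activated kinase of myeloproliferative neoplasms, and the WT group (2 libraries) is wild type. Both are labelled as 16 weeks after tamoxifen, and the study asked how the mutation affects lymphoid differentiation. The study's protocol writes VF for the mutant mice that the sample labels call SF1. The labels do not say whether libraries came from separate or pooled animals, nor the strain, age or sex of the mice or whether WT carries Cre. The p-values therefore reflect spread among 5 libraries that may be technical.

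The SF1 libraries held between 9350767 and 11290082 counts and the WT libraries 20424296 and 8894288. Levels are CPM, counts divided by library size after TMM scaling. The detection floor, set at 3 counts, stood for 0.319, 0.263 and 0.276 CPM in the SF1 libraries and for 0.151 and 0.342 CPM in the WT libraries. A gene said to be at 0 in a group had no counts in any library of that group. The defining markers of the labelled cells were present. Flt3 was at 1590, 1640 and 1700 CPM in SF1 and 1510 CPM in both WT libraries, Il7r, which encodes CD127, was at 465, 421 and 431 CPM in SF1 and 331 and 371 CPM in WT, and no gene of the 12-gene progenitor marker list was at 0 in a group. Counts per gene do not read the JAK2 mutation, so they do not check the genotype.

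As background, the classical receptors for immunoglobulin G fall into activating and inhibitory kinds. The activating ones (Fcgr1, Fcgr3 and Fcgr4 in mice) have no signalling motif of their own and need the gamma chain made from Fcer1g, which carries an immunoreceptor tyrosine-based activation motif (ITAM) and also keeps the receptors at the cell surface. Tyrobp encodes DAP12, a chain with the same kind of motif that serves other receptors of myeloid and natural killer cells. Fcgr2b is the inhibitory receptor and carries an inhibitory motif (ITIM) that recruits the phosphatase SHIP. Fcgrt encodes the neonatal Fc receptor, which salvages immunoglobulin G from degradation, Fcmr the receptor for immunoglobulin M, and Fcrla an intracellular relative found in B cells. An antibody to the shared part of the Fcgr2b and Fcgr3 products is used in sorting schemes to mark granulocyte-monocyte progenitors.

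The coding bases of the motifs are shown because the ITAM is what Fcer1g and Tyrobp have in common and the ITIM is what sets Fcgr2b apart. They were read from the GENCODE M21 transcripts (build GRCm38), and capitals mark the tyrosine codons that become phosphorylated. The Fcer1g motif lies in exons 4 and 5 of 5, at chr1:171229889-171230072 on the minus strand, and the Tyrobp motif in exons 4 and 5 of 5, at chr7:30415670-30417382 on the plus strand, each interrupted by an intron. The Fcgr2b motif lies in exon 8 of 8, at chr1:170961071-170961088 on the minus strand.
Fcer1g ITAM: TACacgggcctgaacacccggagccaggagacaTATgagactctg
Tyrobp ITAM: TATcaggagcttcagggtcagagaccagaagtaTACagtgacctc
Fcgr2b ITIM: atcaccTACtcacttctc

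Fcgr2b and Fcgr3 also share sequence, which bears on how reads divide between them. Of the windows of 50 bases along the coding part of Fcgr2b, 17.1% (166 of 971) were identical in Fcgr3, and 12.8% of the windows along the whole Fcgr3 transcript were identical in Fcgr2b. The longest shared run was 129 bases, in exons 3 and 4 of both genes (chr1:170966674-170968081 in Fcgr2b and chr1:171054167-171057792 in Fcgr3, both on the minus strand), and it is printed so that the overlap can be seen.
Fcgr2b and Fcgr3 shared run: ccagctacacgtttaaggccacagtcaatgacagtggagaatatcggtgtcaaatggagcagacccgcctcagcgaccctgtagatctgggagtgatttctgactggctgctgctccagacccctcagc
The sources used here do not state how the authors' counting treated reads from such stretches, so the separate values of Fcgr2b and Fcgr3 are uncertain to that extent. Over the whole Fcgr2b transcript, 12.5% of windows occurred in a transcript of another gene, Fcgr3 and others such as Cplx2 included. No window of Fcgr1, Fcgr4, Fcer1g, Tyrobp, Fcgrt, Fcrla or Fcmr was found in a transcript of another gene. By the annotation, 155 exonic bases of Fcgr2b overlap an antisense gene, Gm38204, which had 0 counts in every library, and no exon of another member overlaps a different gene.

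The gene starts were compared too, because PU.1, the transcription factor that opens the myeloid programme, binds a core written GAGGAA. RefSeq sequences (build GRCm38.p6) covering 250 bases before the RefSeq transcript start matched 8 of the 9 members, all but Tyrobp. Some of these starts, as for Fcgr3, Fcgr2b and Fcmr, lie inside the gene extents given below. Fcgr3 had 2 windows, whose GAGGAA match lies 6 or 15 bases before the start, and the first is printed. Searched on both strands, GAGGAA was in 5 of the 8, against 23.3% of all 32851 promoter windows of this length. In all 5 (Fcgr1, Fcgr3, Fcgr4, Fcrla and Fcmr) it lay in the reverse direction, as TTCCTC, within the last 60 bases before the start, where 3.06% of all windows held TTCCTC. The 60-base window was chosen after these places were seen. The last 60 bases are printed with that match in capitals.
Fcgr1, chr3:96293970-96294029, minus strand: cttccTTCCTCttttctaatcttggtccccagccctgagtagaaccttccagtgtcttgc
Fcgr3, chr1:171059404-171059463, minus strand: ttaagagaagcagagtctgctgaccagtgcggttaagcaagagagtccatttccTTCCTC
Fcgr4, chr1:171018866-171018925, plus strand: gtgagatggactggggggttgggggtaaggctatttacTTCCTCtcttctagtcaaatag
Fcrla, chr1:170927584-170927643, minus strand: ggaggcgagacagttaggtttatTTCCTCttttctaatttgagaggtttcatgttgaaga
Fcmr, chr1:130865717-130865776, plus strand: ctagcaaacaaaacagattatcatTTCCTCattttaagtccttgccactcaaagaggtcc
Fcgr2b, chr1:170976072-170976131, minus strand: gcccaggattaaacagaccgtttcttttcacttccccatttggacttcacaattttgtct
Fcer1g, chr1:171234350-171234409, minus strand: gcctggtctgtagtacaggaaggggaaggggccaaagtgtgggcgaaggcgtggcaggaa
Fcgrt, chr7:45103823-45103882, minus strand: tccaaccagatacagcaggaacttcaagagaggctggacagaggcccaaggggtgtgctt
The motif TTGCNNAA of the C/EBP factors, which drive granulocyte genes, was in the 250 bases of 2 of the 8, Fcgr3 and Fcgrt, against 9.56% of all windows. These are matches of letters, not sites shown to be bound. GAGGAA matches stood both at genes that rose in SF1 (Fcgr3, Fcrla) and at genes with few reads (Fcgr1, Fcgr4, Fcmr). Fcer1g and Fcgrt, which also rose in SF1, and Fcgr2b, which was not called, had no GAGGAA match.

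RNA of most tested members was higher in the SF1 libraries. The chains Fcer1g and Tyrobp, the activating receptor Fcgr3, and Fcgrt and Fcrla, 5 of the 6 tested genes, were called higher than in WT. None was called lower, and Fcgr3 was the only classical receptor called. Called means an adjusted p under 0.05 in the quasi-likelihood F test of edgeR, adjusted by Benjamini-Hochberg over all 14423 genes tested. Over those genes 6.77% were called higher and 9.74% were called lower. The median log2 fold change was 1.5 over the 6 tested members and 0.02 over all genes tested. All 6 tested members reached the filter's level, 0.932 CPM, in a WT library too, so none was tested through SF1 alone. In the 5 called genes every SF1 library lay above both WT libraries, as did 24.8% of all genes tested. In bulk RNA, more cells with a transcript and more RNA per cell cannot be told apart.

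**Figure D1:**
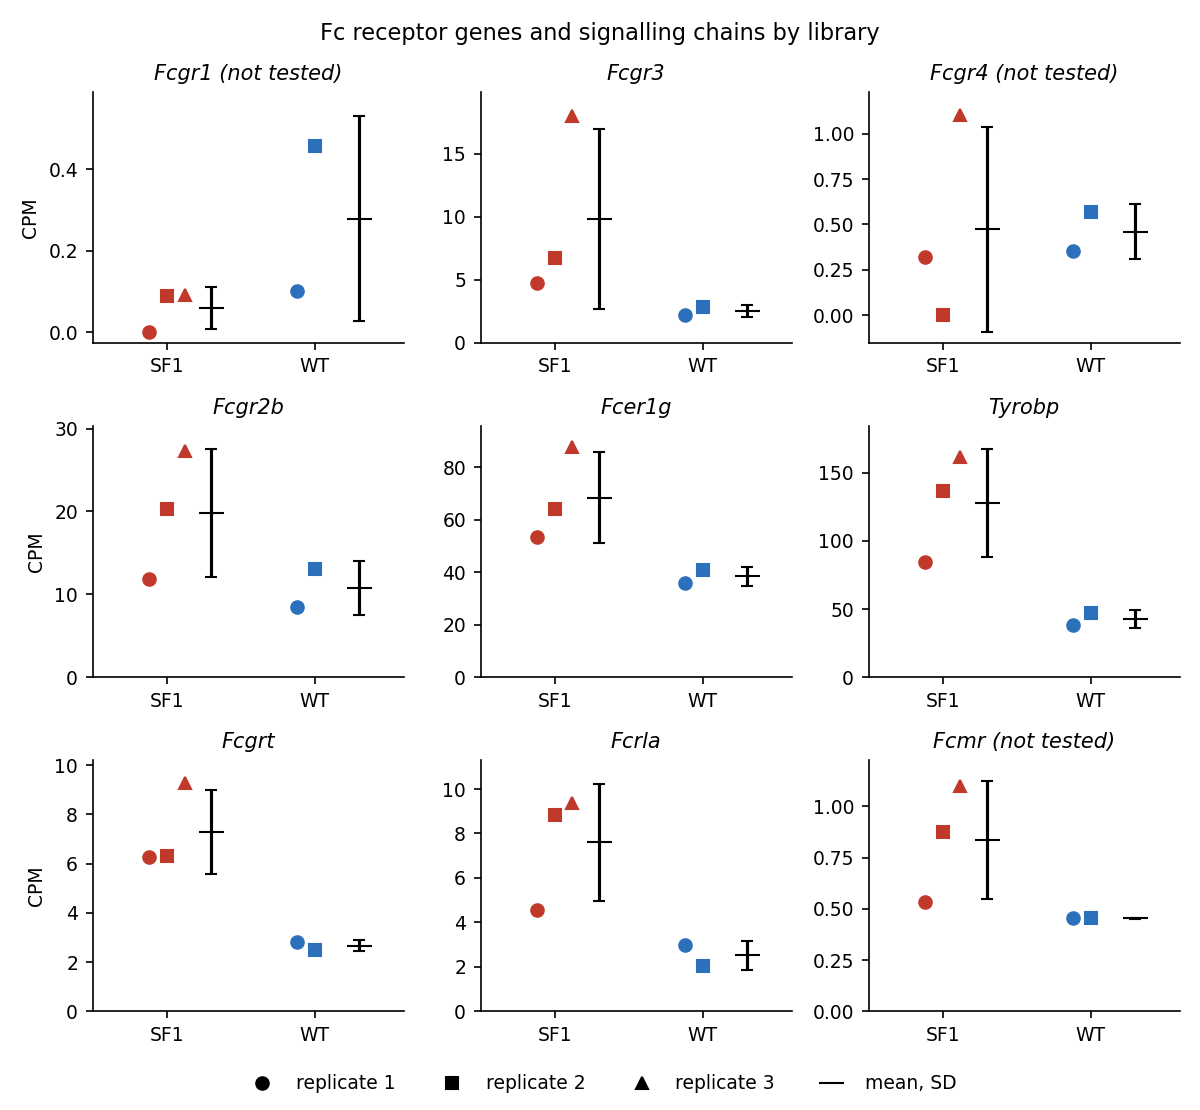
CPM of each of the 9 genes (vertical axes start at or below 0 and differ between panels) in the 3 SF1 libraries, left, and the 2 WT libraries, right; bars give mean and SD. SF1 lies above WT with no overlap in Fcgr3, Fcer1g, Tyrobp, Fcgrt and Fcrla, and Fcgr2b overlaps.

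The signalling chains were the most abundant members. Tyrobp (ENSMUSG00000030579, GRCm38 chromosome 7, 30413760 to 30417585) was at 84.8, 137 and 162 CPM in SF1 (always in the order of replicates 1, 2 and 3) and at 38.2 and 47.3 CPM in WT (replicates 1 and 2). The lowest SF1 library was 1.79 times the higher WT library. The means were 128 ± 39.5 CPM (SD, n = 3) in SF1 and 42.7 ± 6.41 CPM (SD, n = 2) in WT, a 3.02-fold rise (log2 fold change 1.59, SE 0.24, edgeR adjusted p = 0.00355). Tyrobp was the member whose call held without any 1 of the 5 libraries and under every other setting tried, with adjusted p-values of at most 0.0277. Without 1 of the WT libraries, here and for the genes below, WT is a single library that the fit assumes to vary as the SF1 libraries do.

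Fcer1g (ENSMUSG00000058715, chromosome 1, 171229572 to 171234365) rose less. It was at 53.5, 64.1 and 87.6 CPM in SF1 and at 35.8 and 40.9 CPM in WT. The means were 68.4 ± 17.4 CPM (SD, n = 3) in SF1 and 38.4 ± 3.58 CPM (SD, n = 2) in WT, 1.79-fold higher in SF1 (log2 fold change 0.84, SE 0.19, edgeR adjusted p = 0.0193). The groups did not overlap, but the gap was narrow, the lowest SF1 library being 1.31 times the higher WT library. Leaving out SF1 replicate 2 raised the adjusted p to 0.0543, and leaving out WT replicate 1 raised it to 0.128, and each ended the call. With GC and length correction and a replicate block the log2 fold change was 0.43 (adjusted p = 0.0496). The block fits a term for each replicate number, and replicate 3 exists only in SF1. Blocked fits, here and below, thus compare replicates 1 and 2 only. They are not a check apart from leaving out SF1 replicate 3.

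Of the activating receptors, Fcgr3 alone had enough reads to test. Fcgr3 (ENSMUSG00000059498, chromosome 1, 171051174 to 171064935), the low-affinity receptor of myeloid and natural killer cells, was at 4.79, 6.74 and 18.0 CPM in SF1, from 45, 77 and 196 counts. In WT it was at 2.21 and 2.85 CPM, from 44 and 25 counts. SF1 replicate 3 stood far above the other two, and the highest SF1 library was 3.76 times the lowest. The means were 9.85 ± 7.14 CPM (SD, n = 3) in SF1 and 2.53 ± 0.448 CPM (SD, n = 2) in WT, a 3.98-fold rise (log2 fold change 1.99, SE 0.55, edgeR adjusted p = 0.0387). The call ended when any library but SF1 replicate 1 was left out: the adjusted p was 0.0633 without SF1 replicate 2, 0.06 without SF1 replicate 3, 0.209 without WT replicate 1 and 0.0811 without WT replicate 2. It also ended by limma voom with sample weights (0.0698) and with GC and length correction (0.052). The log2 fold change was 1.22 without SF1 replicate 3, 1.17 with a replicate block (adjusted p = 0.0341) and 0.95 with the block and the GC and length correction together (adjusted p = 0.0523).

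The other activating receptors were near the detection floor. Fcgr1 (ENSMUSG00000015947, chromosome 3, 96282909 to 96293969), the high-affinity receptor of monocytes and macrophages, had 0, 1 and 1 counts in SF1 and 2 and 4 counts in WT. Its CPM values of 0.0, 0.0876 and 0.0919 in SF1 lay below the 0.101 and 0.456 CPM of WT. The ratio of SF1 to WT, with counts scaled to the same total, was 0.301, with a 95% exact counting interval of 0.0297 to 1.69 that includes equal levels. Fcgr4 (ENSMUSG00000059089, chromosome 1, 171018920 to 171029761), a receptor of monocytes, macrophages and neutrophils, had 3, 0 and 12 counts in SF1 and 7 and 5 counts in WT, a ratio of 1.13 (95% interval 0.494 to 2.64). Most SF1 reads of Fcgr4 came from replicate 3, and without it the ratio was 0.344. With any 1 library left out the ratio ran from 0.344 to 1.77 for Fcgr4 and from 0.139 to 0.627 for Fcgr1. No difference in Fcgr1 or Fcgr4 was detectable at this depth, and the intervals cover counting error only.

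The inhibitory receptor Fcgr2b (ENSMUSG00000026656, chromosome 1, 170958617 to 170976547) was not called. It was at 11.8, 20.3 and 27.3 CPM in SF1 and at 8.45 and 13.1 CPM in WT. SF1 replicate 1 lay below WT replicate 2, and the groups overlap. The means were 19.8 ± 7.76 CPM (SD, n = 3) in SF1 and 10.8 ± 3.28 CPM (SD, n = 2) in WT (log2 fold change 0.91, SE 0.33, edgeR adjusted p = 0.0946). It passed as higher without SF1 replicate 1 (adjusted p = 0.0222), by DESeq2 (0.0437) and with no filter on low counts (0.000212). The edgeR fit with no filter gave every tested member a smaller adjusted p at a nearly unchanged log2 fold change. For Tyrobp the adjusted p was 8.97e-38 there (log2 fold change 1.58). Fcgr2b kept a log2 fold change of 0.9 in that fit, so its smaller p does not come from a larger difference.

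Of the 3 members outside the classical receptors, Fcgrt and Fcrla rose and Fcmr had too few reads. Fcgrt (ENSMUSG00000003420, chromosome 7, 45092990 to 45103851) was at 6.28, 6.31 and 9.28 CPM in SF1 and at 2.82 and 2.51 CPM in WT, a 2.71-fold rise (log2 fold change 1.44, SE 0.29, edgeR adjusted p = 0.0114). It had the widest gap between the groups among the tested members, with the lowest SF1 library at 2.23 times the higher WT library. The call was lost without WT replicate 1 (adjusted p = 0.0621).

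Fcrla (ENSMUSG00000038421, chromosome 1, 170917576 to 170927583) was at 4.57, 8.85 and 9.37 CPM in SF1 and at 2.97 and 2.05 CPM in WT, 2.95-fold higher in SF1 (log2 fold change 1.56, SE 0.36, edgeR adjusted p = 0.0208). All SF1 libraries lay above WT, replicate 1 by the least. This call too needed every library but SF1 replicate 1: the adjusted p was 0.0759 and 0.0673 with SF1 replicate 2 or 3 left out, and 0.0645 and 0.0806 with WT replicate 1 or 2 left out. A replicate block gave 0.0694, and 0.076 together with GC and length correction (log2 fold change 1.05). Fcmr (ENSMUSG00000042474, chromosome 1, 130865669 to 130880791) had 5, 10 and 12 counts in SF1 and 9 and 4 counts in WT, a ratio of 1.88 with a 95% counting interval of 0.936 to 3.96. It was not tested, and its CPM values of 0.532, 0.876 and 1.10 in SF1 lay above the 0.453 and 0.456 CPM of WT.

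**Figure D2:**
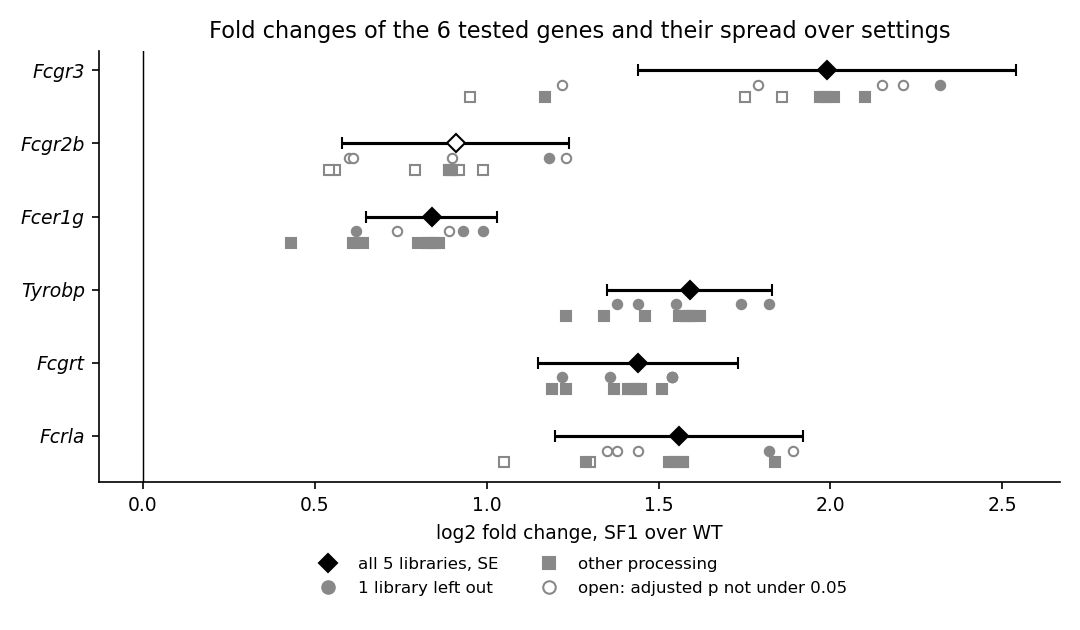
Log2 fold change of SF1 over WT for the 6 tested genes: diamonds with SE bars from all 5 libraries, circles with 1 library left out, squares under other processing; open symbols have an adjusted p of 0.05 or more. All values lie above 0, those of Tyrobp from 1.23 to 1.82 and those of Fcgr3 from 0.95 to 2.32; the open circle of Fcgrt without WT replicate 1 (1.54) lies under filled ones at the same value.

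The SF1 libraries were ordered alike across the members. In 6 of the 6 tested members replicate 3 was highest and replicate 1 lowest within SF1, an order that 17.8% of all genes tested had. The spread within SF1, as highest over lowest library, ran from 1.48 for Fcgrt to 3.76 for Fcgr3, and within WT from 1.12 for Fcgrt to 1.55 for Fcgr2b.

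Per length, the chains stood apart from the receptors in both groups. In TPM, which divides counts by exon length and scales every library to the same sum, Tyrobp was at 435, 707 and 825 in SF1 and at 202 and 244 in WT. Fcer1g was at 209, 253 and 340 TPM in SF1 and at 144 and 161 TPM in WT, below Tyrobp in every library. Fcgr3, Fcgrt, Fcrla and Fcgr2b followed between 6.97 and 35.2 TPM in SF1 and between 4.04 and 7.78 TPM in WT, with ranges that overlap in SF1. In WT these ranges overlap too, except that Fcgrt (4.72 and 4.10 TPM) lay below Fcgr2b (5.14 and 7.78 TPM). Fcmr, Fcgr4 and Fcgr1 were last, at no more than 2.98 TPM in any library.

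Ratios within a library need no scaling between libraries, and 3 of them were computed from read counts. The Fcer1g to Tyrobp ratio was 0.631, 0.470 and 0.540 in SF1 and 0.938 and 0.865 in WT, so reads of the chains were nearly equal in WT and Tyrobp had the larger share in SF1. The groups did not overlap (difference of mean log2 ratios -0.73, exact two-sided permutation p = 0.1, the smallest that 3 against 2 libraries allow). The Fcgr3 to Fcgr2b ratio, activating over inhibitory, was 0.408, 0.333 and 0.661 in SF1 and 0.264 and 0.221 in WT (difference 0.89, exact two-sided permutation p = 0.2). The Fcgr3 to Fcer1g ratio, receptor over chain, was 0.0904, 0.106 and 0.206 in SF1 and 0.0625 and 0.0709 in WT (difference 0.91, exact two-sided permutation p = 0.2). The groups did not overlap in either of these, and no ratio could pass 0.05 in this design. With all libraries thinned to the smallest total the differences of the Fcgr3 ratios were 1.16 over Fcgr2b and 1.12 over Fcer1g. The thinning was a single random draw of reads, and the part of depth in these shifts was not tested.

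**Figure D3:**
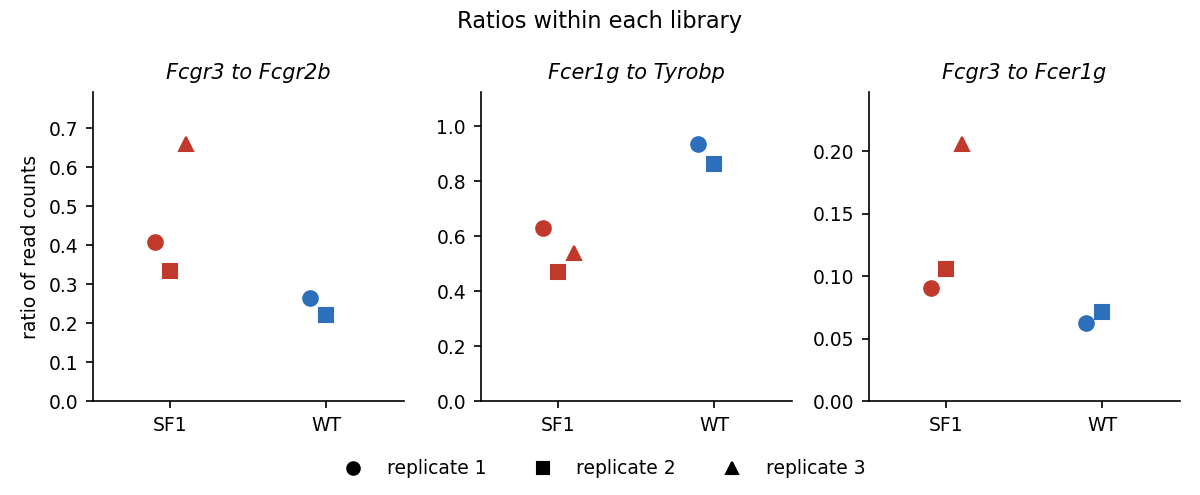
Ratio of read counts of 2 genes within each library (axes start at 0), SF1 left and WT right, symbols by replicate. Fcer1g over Tyrobp lies between 0.470 and 0.631 in SF1 and at 0.865 and 0.938 in WT; the ratios with Fcgr3 on top are higher in SF1.

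Of the 9 members, 5 lie side by side on chromosome 1, in a stretch of 317 kb from Fcrla to Fcer1g (170917576 to 171234365) that also holds other genes. Of its 20 annotated genes 9 were tested, and the 3 called higher were members, Fcrla, Fcgr3 and Fcer1g. Fcgr2b and the 5 tested genes that are not members were not called in either direction. Among these was Sdhc, a subunit gene of mitochondrial complex II between Fcgr3 and Fcer1g, at 105, 98.1 and 108 CPM in SF1 and at 97.8 and 116 CPM in WT (log2 fold change -0.04, SE 0.10). Tomm40l, separated from Fcer1g by Apoa2, had a log2 fold change of -0.29 (SE 0.12, edgeR adjusted p = 0.131). Pcp4l1, also between Fcgr3 and Fcer1g, was at 4.79, 9.02 and 7.17 CPM in SF1 and at 2.62 and 5.01 CPM in WT (log2 fold change 0.94, SE 0.37, edgeR adjusted p = 0.117), and its groups overlap. These 3 were named for their place in the stretch, after their values were seen.

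**Figure D4:**
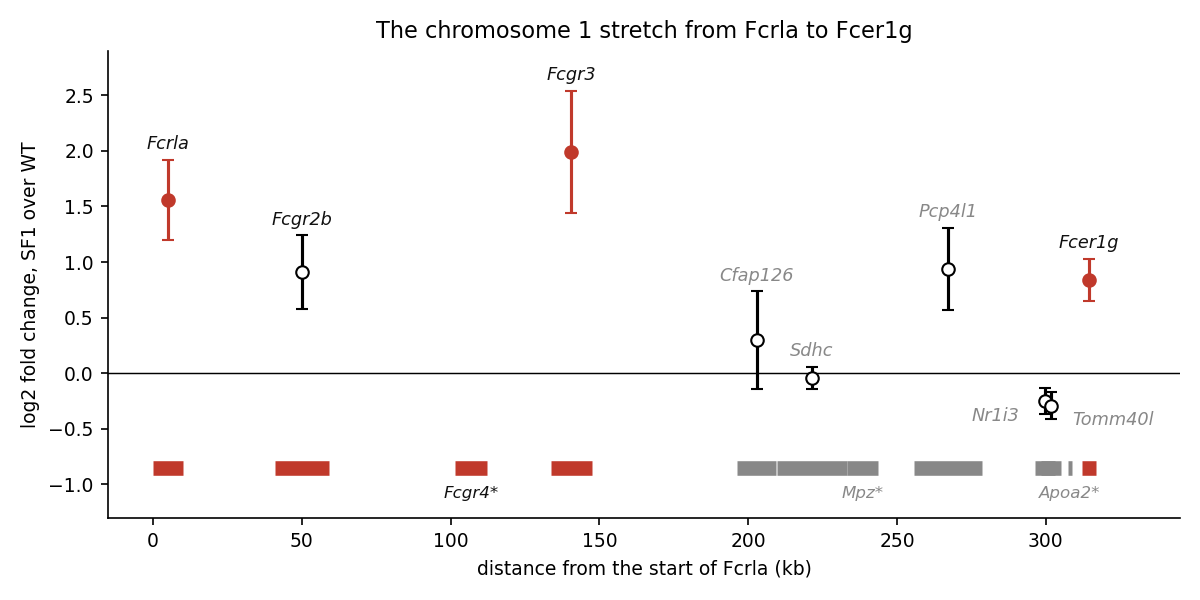
Log2 fold change (points, SE bars) of the tested protein-coding genes on chromosome 1 by distance from the start of Fcrla; blocks below show gene extents, in red for members, and an asterisk marks genes not tested. Filled red points are called higher: Fcrla, Fcgr3 and Fcer1g.

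Receptors that borrow the chains rose in part. Of 31 listed receptors known to pair with Fcer1g or Tyrobp, 26 were matched and 10 were tested, of which 5 were higher and none lower (median log2 fold change 1.37). Siglech, a DAP12-dependent receptor of plasmacytoid dendritic cells, was at 209, 312 and 297 CPM in SF1 and at 67.9 and 81.9 CPM in WT (log2 fold change 1.87, edgeR adjusted p = 0.000443). Cd300lb, a myeloid receptor, was at 34.6, 50.6 and 36.8 CPM in SF1 and at 12.3 and 17.2 CPM in WT (log2 fold change 1.49, edgeR adjusted p = 0.00253). Clec5a, a DAP12-coupled lectin of monocytes and neutrophils, was at 3.19, 3.24 and 11.2 CPM in SF1 and at 0.403 and 0.342 CPM in WT (log2 fold change 3.92, edgeR adjusted p = 0.00863; 0.0661 without WT replicate 1). Pilrb2, a paired activating receptor, had 11, 16 and 25 counts in SF1 and 1 and 3 counts in WT (log2 fold change 3.38, edgeR adjusted p = 0.0185). Its call ended with SF1 replicate 3 left out (0.0575), with WT replicate 1 left out (0.199, log2 fold change 2.21) and under a replicate block (0.0569). Clec5a and Pilrb2 stayed under the filter's level in both WT libraries, so they were tested only because SF1 was high, which favours a rise in the list's count and median. The list had 3 genes called without SF1 replicate 3 or under a replicate block, and 2 without WT replicate 1. Trem2, Klrc2, Ncr1 and Gp6, named after their values were seen, had at most 4 counts in any library. Trem1, also named after its values were seen, was alone among the tested receptors in having a negative log2 fold change (-0.61, edgeR adjusted p = 0.135). It was at 41.4, 22.7 and 22.0 CPM in SF1 and at 48.1 and 38.5 CPM in WT. A gene of the list was called lower by limma voom, with no filter and without SF1 replicate 1. The same held with GC and length correction and a replicate block.

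Inhibitory receptors related in function to Fcgr2b rose in part. Of 24 tested, 10 were higher, none was lower and 14 did not pass (median log2 fold change 0.51). Lair1, a collagen receptor, was at 37.0, 58.1 and 56.5 CPM in SF1 and at 17.5 and 18.0 CPM in WT (log2 fold change 1.51, edgeR adjusted p = 0.00179). Cd244a, a receptor of natural killer cells and progenitors, was at 151, 153 and 151 CPM in SF1 and at 105 CPM in both WT libraries (log2 fold change 0.53, edgeR adjusted p = 0.00288). Milr1, an inhibitory receptor of mast cells, had a log2 fold change of 0.50 (edgeR adjusted p = 0.00638; 0.0885 with GC and length correction and a replicate block). Clec12a, a myeloid lectin, had one of 0.36 (edgeR adjusted p = 0.0134), which became 0.0559 with SF1 replicate 2 left out, 0.0979 with WT replicate 1 left out and 0.052 with GC and length correction and a replicate block. Here 3 of the tested genes (Lilrb4a, Clec4a2 and Clec4a3) were under the filter's level in both WT libraries, and Clec4a2 was called higher. The list had 4 genes called without SF1 replicate 2, 5 without SF1 replicate 3 and 3 without WT replicate 1.

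Downstream signalling genes went both ways. Of 37 tested kinases, adaptors, lipases and phosphatases, 6 were higher, 6 lower and 25 did not pass (median log2 fold change 0.02, equal to that of all genes tested). Pik3cd, the leukocyte phosphoinositide 3-kinase subunit, fell to 256, 178 and 207 CPM in SF1, against 562 and 446 CPM in WT (log2 fold change -1.24, edgeR adjusted p = 0.00127). The adaptors Dok2 and Dok3, which dampen signalling, were lower by log2 fold changes of -0.61 and -0.80 (edgeR adjusted p = 0.00331 and 0.00579; Dok3 reached 0.05 without WT replicate 1). Sos1, an exchange factor for Ras, was at 32.9, 34.0 and 34.9 CPM in SF1 and at 17.2 and 16.5 CPM in WT (log2 fold change 1.01, edgeR adjusted p = 0.00132). Syk, the kinase that binds phosphorylated ITAMs, was not called, at 303, 292 and 300 CPM in SF1 and 402 and 312 CPM in WT (log2 fold change -0.26, edgeR adjusted p = 0.124). Its SF1 libraries all lay below WT, and it was named for its role after its values were seen. Inpp5d, the gene of the phosphatase SHIP, was called lower, at 598, 491 and 473 CPM in SF1 and 866 and 743 CPM in WT. Its log2 fold change was -0.63 (edgeR adjusted p = 0.00665). It too was named for its role after its values were seen, and its values under other settings are not given here. The list had 7 genes called without SF1 replicate 3 or under a replicate block, and 6 without WT replicate 1.

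No signalling chain of other immune receptors was called higher. Of 4 tested, the B-cell receptor chains Cd79a and Cd79b were lower and 2 were not called (median log2 fold change -0.23). Cd79a was at 185, 119 and 116 CPM in SF1 and at 288 and 259 CPM in WT (log2 fold change -0.97, edgeR adjusted p = 0.00799). Cd79b had a log2 fold change of -0.49 (edgeR adjusted p = 0.0182), and its call ended with SF1 replicate 2, SF1 replicate 3 or WT replicate 1 left out (0.0666, 0.0696 and 0.0879), which left 1 gene of the list called each time. Hcst, which encodes the DAP10 chain and neighbours Tyrobp on chromosome 7 (30417712 to 30419854), was at 10.7, 15.4 and 15.1 CPM in SF1 and 7.85 and 12.4 CPM in WT (edgeR adjusted p = 0.234). Cd247, the zeta chain of T and natural killer cells, had a log2 fold change of 0.03 (edgeR adjusted p = 0.899). Of 11 other Fc receptor genes 2 had enough reads, the B-cell gene Fcrl1 (log2 fold change -0.17) and the cytosolic antibody receptor Trim21 (-0.08), and neither was called (edgeR adjusted p = 0.429 and 0.611). Fcer1a and Ms4a2, the mast cell subunits that complete the receptor for immunoglobulin E, had too few reads to test but more in every SF1 library than in WT. Fcer1a had 16, 7 and 3 counts in SF1 and 0 and 1 counts in WT, and Ms4a2 had 6, 3 and 8 counts in SF1 and 1 and 0 counts in WT. They were named after their values were seen. With no filter on low counts, the fit that gave every tested member a smaller adjusted p, 2 genes of this list were called higher.

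**Figure D5:**
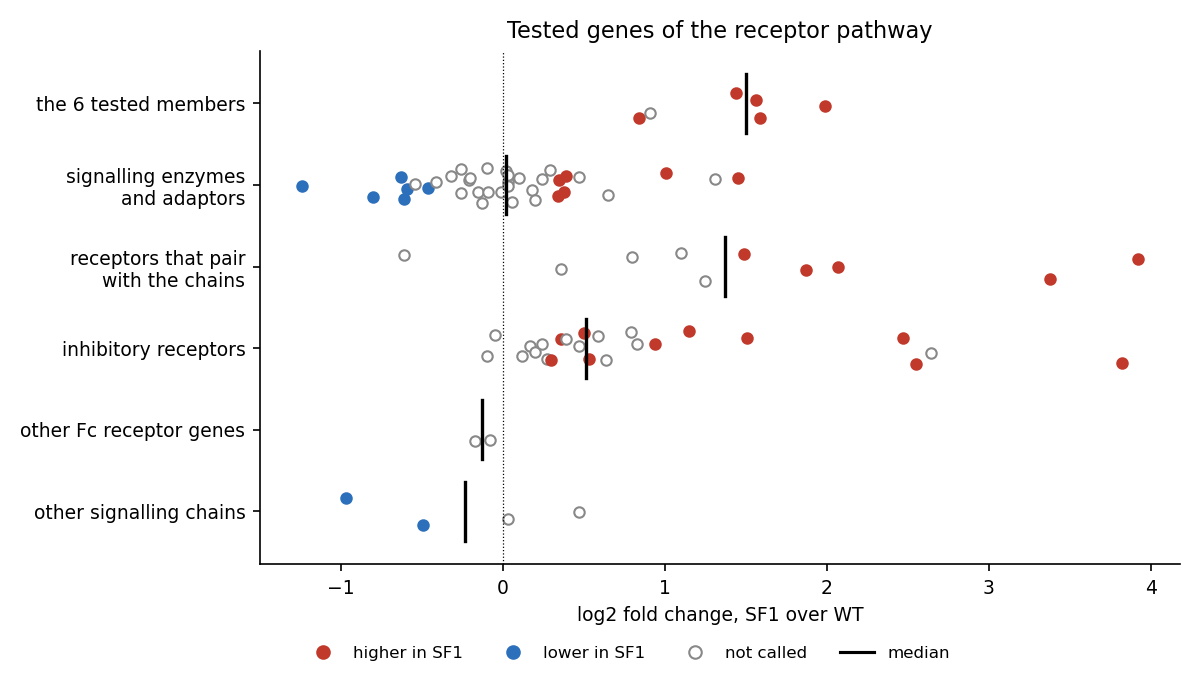
Log2 fold change of SF1 over WT for the tested members and the tested genes of 5 pathway lists; each point is a gene, red if called higher, blue if called lower and open if not called, and bars are medians. Hcst stands in 2 of the lists. Members, pairing receptors and inhibitory receptors have medians of 1.5, 1.37 and 0.51, and the signalling list 0.02.

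The genes whose levels ran most like a member's over the 5 libraries were sought among 9977 tested genes with a mean of at least 5 CPM. Pseudogenes, genes not matched to the annotation and genes with provisional names, such as Gm numbers or Rik, were left out. Likeness was the root mean square difference between log2 CPM profiles, each centred on its own mean. Closest to Fcer1g were Pkp3, a desmosome gene, Ptafr, the receptor for platelet-activating factor, and Grn, which encodes progranulin, at 0.05, 0.05 and 0.06. Closest to Tyrobp were the calcium-binding protein gene S100a6, the annexin gene Anxa2 and the integrin gene Itgb7, at 0.08, 0.09 and 0.11. Closest to Fcgr3 were Lyz2, the lysozyme of myeloid cells, the galectin gene Lgals3 and Trem3, a DAP12-coupled receptor, at 0.15, 0.20 and 0.20. For Fcgr2b they were Gadd45b, Ccl9 and Neurl1b (0.14, 0.16 and 0.18), for Fcgrt they were Neat1, Pld4 and Atxn2 (0.06, 0.13 and 0.14), and for Fcrla they were Amz1, Ier3 and F13a1 (0.14, 0.16 and 0.17). Between members the difference ran from 0.22 for Fcgr2b with Fcer1g to 0.53 for Fcgr3 with Fcer1g, so no member was among the 3 nearest genes of another.

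Markers of some other cells that express Fc receptors, neutrophils, monocytes and dendritic cells among them, moved with the members, and their part in the results was not tested. No member is in a marker list. The pathway lists share Siglech with the dendritic cell list, Klrk1 and Ncr1 with the natural killer list, Cd79a, Cd22 and Fcer2a with the B cell list, Fcer1a and Ms4a2 with the mast cell list, and Cd5, Cd3d, Cd3e and Cd3g with the T cell list. Of 17 tested neutrophil markers 16 were higher in SF1, with a median log2 fold change of 4.33 over the list, above the 1.5 of the tested members. Their summed level was 2170, 2710 and 5860 CPM in SF1 and 941 and 1200 CPM in WT, with replicate 3 highest as in the members. Most of the WT sum was Mpo, the marker not called, at 774, 809 and 990 CPM in SF1 and 779 and 988 CPM in WT. No neutrophil or monocyte marker was without counts in a group. Of 9 tested monocyte markers 7 were higher, with sums of 458, 658 and 1010 CPM in SF1 and 229 and 292 CPM in WT. Of 12 tested dendritic cell markers 7 were higher, with sums from 4370 to 5010 CPM in SF1 and 3090 and 3250 CPM in WT, and Klk1 had no counts in SF1. Flt3 and Ly6d, which are also in the progenitor list, made up most of the dendritic cell sums. Mast cell, basophil and eosinophil markers summed to between 29.5 and 57.5 CPM in SF1 and to 17.2 and 23.5 CPM in WT (2 of 6 higher), with Cma1 and Tpsb2 at 0 in both groups and Prss34 and Epx at 0 in WT.

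In each remaining list at most 4 genes were called higher. Macrophage markers were lower, 7 of 11, with sums from 76.9 to 90.5 CPM in SF1 and 106 and 97.0 CPM in WT. The largest part of these sums was Cd163, which was not called, at 62.8, 68.6 and 65.7 CPM in SF1 and 63.6 and 48.6 CPM in WT. Cd5l, Mertk and Marco had no counts in SF1, and Marco had only 2 and 0 counts in WT. Natural killer markers summed to between 189 and 213 CPM in SF1 and to 178 and 183 CPM in WT (1 of 6 higher), with Gzmb at 0 in both groups, Ncr1 at 0 in SF1 and Eomes at 0 in WT. Mature B and plasma cell markers summed to between 862 and 1070 CPM in SF1 and to 1040 and 966 CPM in WT (2 of 10 higher, 3 lower). The sum hides large rises: the immunoglobulin light chain gene Igkc was at 185, 136 and 168 CPM in SF1 and at 0.604 and 0.342 CPM in WT (log2 fold change 8.26, edgeR adjusted p = 1.43e-06), and Jchain, of antibody-secreting cells, was at 85.1, 68.4 and 31.8 CPM in SF1 and at 1.36 and 0.911 CPM in WT (log2 fold change 5.66). The part of Igkc and Jchain in the values of Fcrla and Fcgr2b was not tested. T cell markers summed to between 273 and 303 CPM in SF1 and to 262 and 218 CPM in WT (1 of 6 higher), with Cd8b1 at 0 in both groups, Cd3e at 0 in SF1 and Cd3g at 0 in WT. Erythroid markers summed to between 361 and 425 CPM in SF1 and to 479 and 379 CPM in WT (6 of 10 lower), with Hba-a2 at 0 in SF1. Most of the natural killer, T cell and erythroid sums was Nkg7, Lck and Tfrc, respectively, none of them called. The progenitor list itself summed to between 14300 and 14800 CPM in SF1 and to 13600 and 13100 CPM in WT (4 of 12 higher, 2 lower).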

How the data were processed

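The authors deposited unnormalized read counts for each gene. The submitters' processing notes name GRCm38 and the tools HISAT2 2.2.1, featureCounts 2.0.1 and FastQC, and no source used here states the annotation release or the strand and multi-mapping settings. Per the labels' protocols, cDNA was amplified by SMART-Seq (version 2 or 4) and made into Nextera XT libraries, which carry no molecular identifiers and no strand, so PCR copies count as reads.

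Of 55487 identifiers, 55227 matched GENCODE M21 (same build). edgeR 4.0.16 (R 4.3.3) was run with TMM scaling, filterByExpr (minimum count 10), no covariate and the quasi-likelihood F test, with Benjamini-Hochberg adjustment over all genes and a threshold of 0.05. SE is derived from the F statistic. Functions were tested on simulated data. Alternatives were DESeq2 1.42.0 and its size factors, limma 3.58.1 voom with sample weights, other filters (none, or at least 1 CPM in every library of a group and 50 counts), thinning, a replicate block, GC and length correction, and leaving out each library. Ratios used a pseudocount of 0.5 and exact permutation. TPM used exon-union length.

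The members and the 5 pathway and 10 marker lists were chosen with earlier results of these data known. Named were all members, up to 4 genes a list by smallest p, and the 3 genes nearest each tested member in profile.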

Additional observations from a re-analysis of the deposited data

How the results depend on the processing

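No tested member changed direction under any of the 14 alternatives. The members called higher, 5 in the main analysis, numbered between 1 (without WT replicate 1, where Tyrobp was the one left) and 6 (without SF1 replicate 1) when 1 library was left out, and 3 with GC and length correction together with the replicate block; none was lower under any alternative. Genes called in all, 2382, numbered between 986 and 2170 without 1 library and 1519 with the replicate block. The list calls without 1 library ran from 6 to 11 for the signalling genes, 2 to 6 for the pairing receptors, 3 to 12 for the inhibitory receptors, 0 for other Fc receptor genes and 1 to 2 for other chains. With the replicate block the signalling list had 7 and the pairing receptors 3. With no filter on low counts the pairing receptors had 10 (9 higher and 1 lower) and the other Fc receptor genes 2. Of the 6 pairing receptors called without SF1 replicate 1, 5 were higher and 1 was lower. Cd247, near 0 in the main analysis, had log2 fold changes of -0.01 with GC and length correction and -0.03 and -0.04 without SF1 replicate 1 or 2 (range without 1 library -0.04 to 0.16), and Trim21 one of 0.01 without WT replicate 1 (range -0.18 to 0.01); these settings for list genes were added after the data were seen. The block ended the calls of Fcrla and Pilrb2 among members and the list genes named by smallest p. Of the 18 genes nearest in pattern, checked after the data were seen, it ended those of Gadd45b, Pkp3 and Trem3 (adjusted p = 0.0527, 0.0991 and 0.0504). Deviations of same-numbered libraries had correlations of 0.0356 and 0.0646 across genes, and those of differently numbered libraries ran from -0.0646 to 0.0234. With 2 WT libraries the WT deviations mirror each other, so these values cannot settle whether a shared number marks a pair. The block's term for replicate 3 covers an SF1 library alone, so the block also takes that library out of the comparison. The ratios kept their direction in all 7 alternatives each, with differences without 1 library from -0.84 to -0.63 for Fcer1g over Tyrobp, from 0.61 to 1.10 for Fcgr3 over Fcgr2b and from 0.55 to 1.15 for Fcgr3 over Fcer1g. Leaving out WT replicate 1, the library with the most reads, gave the fewest calls both among the members and over all genes. Depth limits Fcgr1, Fcgr4 and Fcmr, which had at most 12 counts in any library. The causes of lost calls were not tested.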
